A study of Mus musculus with 10 samples.

Results

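Oxidative phosphorylation, the set of 5 protein complexes that turns the oxidation of nutrients into ATP in the inner mitochondrial membrane, was examined here gene by gene in mouse auditory cortex. The members were all rows of the count table whose symbol matched a pattern for subunits of these complexes. The patterns took mt-Nd, mt-Co, mt-Atp and mt-Cytb genes, Nduf, Sdh, Uqcr and Cox4 to Cox8 genes, and Atp5 genes. A matching symbol does not establish a structural role, for example for Atp5s, Atp5sl and Cox7a2l. The patterns matched 101 symbols, of which 4 marked as pseudogenes were left out. The remaining 97 members, out of 34745 genes in the table, comprise 13 genes on the mitochondrial genome and 84 nuclear genes. Complex I has 7 mitochondrial and 37 nuclear members, complex II has 4 nuclear members, complex III has 1 mitochondrial and 8 nuclear members, complex IV has 3 mitochondrial and 18 nuclear members, and complex V has 2 mitochondrial and 17 nuclear members. The assignment follows the symbol, so Ndufa4, now regarded as a subunit of complex IV, is counted with complex I.

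The study compared male C57BL/6 mice that are wild-type (WT) or heterozygous for Ash1l (Ash1l_het), a gene that encodes a histone methyltransferase, at 1 month and at 1 year of age. There are 3 WT and 3 Ash1l_het libraries at 1 month, and 2 WT and 2 Ash1l_het libraries at 1 year. Each library is stranded mRNA sequencing of auditory cortex, with 11959161 to 17252964 counts over all genes. The series title calls the WT mice littermates. Whether the replicates of a group came from different mice is not stated, so p-values may reflect technical spread alone, and neither an allele name nor a breakpoint is given in the sources used here.

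Respiratory complexes I, III and IV pass electrons from NADH and ubiquinol to oxygen and pump protons, complex II feeds electrons in from succinate, and complex V, the ATP synthase, uses the proton gradient to make ATP. Complexes I, III, IV and V are built from subunits of both genomes, and complex II from nuclear subunits alone. The mitochondrial genes are transcribed as long polycistronic RNAs inside the organelle, all but mt-Nd6 from the same strand, while each nuclear gene has its own promoter. Neurons rely on oxidative phosphorylation for most of their ATP.

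The checks on the libraries touch the results below as follows. Ash1l itself was counted at 225.1, 191.7 and 218.1 CPM (counts scaled to a common library size with TMM factors) in WT and at 146.7, 153 and 130.7 CPM in Ash1l_het at 1 month, and at 183.2 and 165.4 CPM in WT and 156.5 and 162.2 CPM in Ash1l_het at 1 year. The groups did not overlap at either age, but the difference at 1 year was small and no Ash1l comparison passed the adjusted threshold (log2 fold change -0.56 ± 0.10 SE at 1 month and -0.13 ± 0.12 at 1 year, edgeR adjusted p = 0.279 and 0.908). All 10 neuron markers, all 10 excitatory neuron markers and all 10 markers of oligodendrocyte precursors were lower at 1 year than at 1 month. Of these, 5, 4 and 3 passed the threshold. Over all 16023 genes tested, 7900 were lower and 7.49% were called lower. The summed CPM of the neuron markers was 8069 to 9515 at 1 month and 6830 to 7780 at 1 year. None of those 30 markers was at 0 in every library. Of the other lists, 9 of 9 mural, 10 of 10 meningeal and fibroblast and 9 of 10 endothelial markers were also lower (medians -0.57, -0.50 and -0.34, with 2, 0 and 2 past the threshold). Of 10 oligodendrocyte markers 7 were lower and 4 of them fell, and of 10 astrocyte markers 5 were higher and 3 of them rose, among them Gfap (0.84). Of 10 interneuron markers 8 were lower and 2 of them fell. Of 10 microglia markers 7 were higher, with 1 called higher and 1 called lower. Choroid plexus markers were higher in 3 of 4 tested, blood markers in 2 of 5 and muscle markers in 0 of 5, with 0 called. The summed CPM of the astrocyte markers was 2195 in WT replicate 1 at 1 month and 2500.3 in WT replicate 1 at 1 year, against 4097 to 4988 in the other 8 libraries. In bulk tissue, fewer cells of a type and less RNA per cell cannot be told apart, and the part of this shift in the members' values was not tested. On the first 2 principal components of log2 CPM over all genes tested, Ash1l_het replicate 1 at 1 month was at -4.3 and -30.7. Replicates 2 and 3 of its group were at 32.6 and 21.8 and at 25.9 and 9.1. WT replicate 1 at 1 year was at -10.5 and -20.9, and WT replicate 2 at -26.9 and -0.04. No batch is named in the labels, so age and any batch that goes with it cannot be told apart.

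Several members share their sequence with other places in the genome, and this decides how far their counts can be read. A block of nuclear copies of mitochondrial DNA on chromosome 1 (GRCm38, chr1:24611535-24616197) holds 7 annotated pseudogenes. Over the whole coding sequence of mt-Atp6 (678 bases) the copy Gm10925 differed at 0 bases. The copy Gm28438 differed from mt-Nd3 (MT:9459-9806) at 1 of 345 bases, T3C counted from the first base of the coding sequence, shown in capitals in the first 23 bases of each:

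mt-Nd3: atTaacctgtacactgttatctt
Gm28438: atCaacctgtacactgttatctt

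Of all 100-base stretches in the transcript, 99.9% for mt-Co3, 99.5% for mt-Atp6, 99.5% for mt-Co2, 98.5% for mt-Nd4l, 97.6% for mt-Nd3 and 60.8% for mt-Nd4 also occur in the copy of that gene on chromosome 1. For mt-Co1 the share was 30.8%, with 26.3% in the chromosome 1 copy Gm29216 and 5.5% in Gm13340 on chromosome 2. The chromosome 1 copies together were counted at 7.29% to 9.77% of the summed CPM of the 13 mitochondrial genes. The mitochondrial genes also overlap each other, as the last 43 bases of mt-Atp8 (MT:7766-7969), in capitals here, are the first 43 bases of mt-Atp6:

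mt-Atp8: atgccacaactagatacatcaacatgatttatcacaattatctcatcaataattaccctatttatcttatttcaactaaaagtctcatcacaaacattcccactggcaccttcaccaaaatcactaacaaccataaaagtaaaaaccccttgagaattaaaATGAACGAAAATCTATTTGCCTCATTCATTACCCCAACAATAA

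Among the nuclear members, the share of 100-base stretches found in a copy elsewhere was 86.4% for Atp5g2, 61.3% for Atp5l, 44.4% for Cox7c, 33.4% for Ndufb4 and 29.5% for Atp5h, and at most 20% for each of the others. Cox7c, a small subunit of complex IV, has 189 coding bases (GENCODE M21, chr13:86044816-86046904, minus strand), and a transcribed processed pseudogene on chromosome 17, Gm10012 (chr17:25901856-25902227), differs from them at 2 bases, G30C and G107A. The pseudogene Gm12338 on chromosome 11 differs at 0 of the 189 bases. The pair with the 2 differing bases in capitals reads:

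Cox7c: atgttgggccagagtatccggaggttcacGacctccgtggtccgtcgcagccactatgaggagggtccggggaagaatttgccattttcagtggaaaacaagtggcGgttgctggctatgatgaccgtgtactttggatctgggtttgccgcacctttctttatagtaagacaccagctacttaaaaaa
Gm10012: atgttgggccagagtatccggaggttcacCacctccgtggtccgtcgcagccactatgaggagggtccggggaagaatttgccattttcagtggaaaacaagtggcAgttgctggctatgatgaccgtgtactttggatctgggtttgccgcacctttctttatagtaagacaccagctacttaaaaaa

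Atp5l, subunit g of the ATP synthase, has 309 coding bases (chr9:44912557-44920742, minus strand). Its copy Gm10221 (chr5:24581554-24581862) was identical over 309 aligned bases and holds 47.2% of the 100-base stretches. The processed copy Atp5l2-ps (chr11:97768060-97768371) holds 2.9% of them and differs from the coding sequence at 2 bases, G100A and C206G. Both are in capitals in bases 60 to 246 of the coding sequence, 187 bases long:

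Atp5l: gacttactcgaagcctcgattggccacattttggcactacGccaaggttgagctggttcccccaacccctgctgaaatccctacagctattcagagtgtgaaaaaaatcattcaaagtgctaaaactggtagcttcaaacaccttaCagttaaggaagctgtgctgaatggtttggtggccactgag
Atp5l2-ps: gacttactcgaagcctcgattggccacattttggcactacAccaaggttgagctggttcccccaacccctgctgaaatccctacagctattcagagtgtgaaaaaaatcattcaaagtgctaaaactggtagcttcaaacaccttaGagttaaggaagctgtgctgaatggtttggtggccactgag

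How reads with several equally good positions were counted is not given in the sources used here, so the counts of these members and of their copies are uncertain. Cox7c and Atp5l, subunits present in every tissue's complexes, were counted at only 50 to 141 reads a library, whereas Cox4i1 had 4484 to 6612.

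The mitochondrial genes were the most abundant members by far. The FPKM scale divides by the gene length behind the deposited values. On it mt-Co1 had a mean of 22777 over the 10 libraries, mt-Atp8 21915, mt-Atp6 14536, mt-Co2 14420, mt-Co3 12658, mt-Cytb 10282 and mt-Nd1 9583, and the other complex I genes but mt-Nd6 lay between 4103 (mt-Nd5) and 7028 (mt-Nd4). mt-Nd6 (MT:13552-14070), the one member on the opposite strand, had the lowest mean, 257 FPKM. The nuclear members reached at most 593 ± 86.1 FPKM (SD, n = 10), for Cox8a of complex IV. On this scale only Cox8a, Cox6b1 (312 ± 30.5) and Cox6a1 (263 ± 33.5) lay above mt-Nd6. The length behind the FPKM was 6918 bases for Atp5b, 2661 for Cox4i1 and 2153 for Uqcrh. The transcripts of these genes searched for copies have 1916, 765 and 547 bases. For Cox8a the 2 lengths were 545 and 550. FPKM is thus lowered unequally among nuclear members, and their ranks hold for these FPKM only. The highest nuclear members of the other complexes were Ndufb9 of complex I at 198 ± 36.8, Sdha, the flavoprotein of complex II, at 70.7 ± 3.58, Uqcr10 of complex III at 63.7 ± 4.77, and Atp5b, the catalytic beta subunit of complex V, at 137 ± 5.26 FPKM. Lowest among those tested were Ndufa4l2 (1.09), Sdhc (18.2), Uqcrc1 (32.6), Cox6b2 (0.36) and Atp5g2 (0.85).

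**Figure D1:**
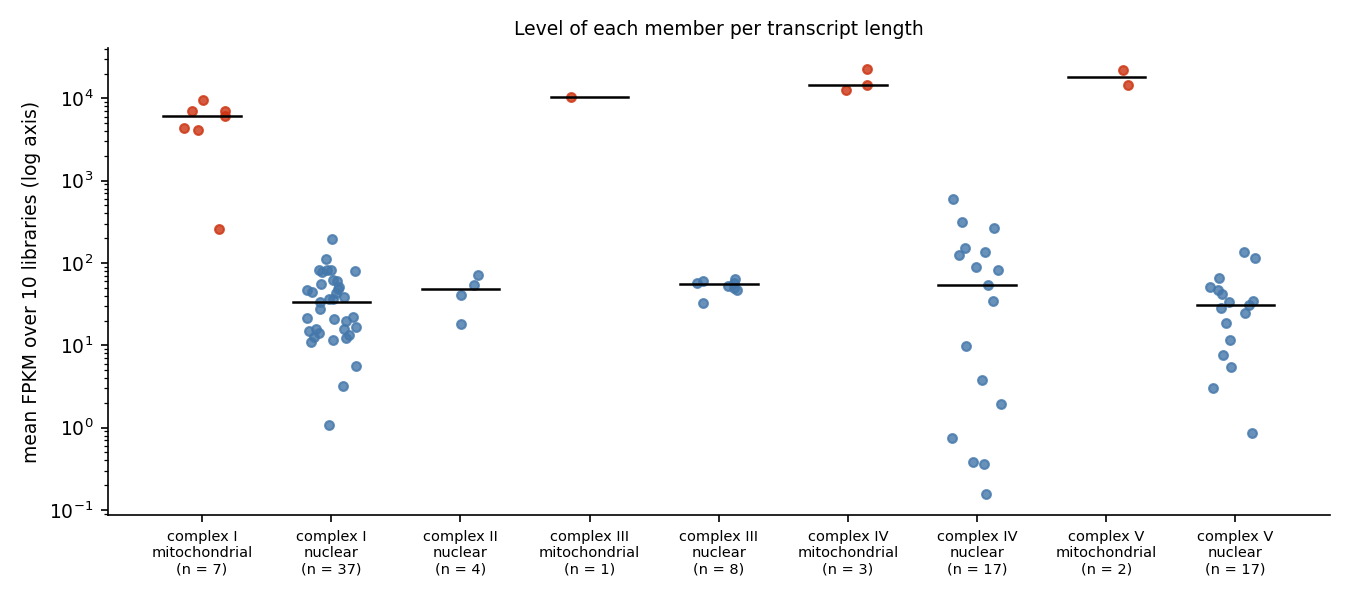
Mean FPKM over 10 libraries (vertical log axis) of each member with a value above 0, by complex and genome. The length in these FPKM is the gene length behind the deposited values, which can exceed that of the transcript. Points are genes and black lines are medians; the mitochondrial genes lie above 4000 FPKM except mt-Nd6 at 257, and the highest nuclear member is Cox8a at 593.

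Where a subunit has several isoforms, the isoform known from most tissues was counted far above the one known from muscle, lung or testis. Cox4i1 had 151 ± 28.8 FPKM (SD, n = 10) against 0.74 ± 0.24 for Cox4i2, Cox6a1 had 263 ± 33.5 against 9.87 ± 2.24 for the heart and muscle isoform Cox6a2, and Cox7a2 had 125 ± 24.2 against 1.93 ± 1.06 for Cox7a1. Cox6b1 had 312 ± 30.5 FPKM against 0.36 ± 0.15 for the testis isoform Cox6b2. Of the 3 genes for subunit c of the ATP synthase, Atp5g3 was highest at 46.5 ± 3.07 FPKM, with Atp5g1 at 3.00 ± 0.35. Cox8c had 0 counts in every library, Cox8b had 0 to 4 and Cox7b2 had 0 to 7, and these 3 did not pass the filter on low counts, which left 94 members, 13 mitochondrial and 81 nuclear, for the tests.

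Summed over the 13 mitochondrial genes, the level varied among libraries of one group as much as between groups. It was 100037, 133337 and 95446 CPM in the 3 WT and 131169, 114918 and 102825 CPM in the 3 Ash1l_het libraries at 1 month, and 119025 and 125535 CPM in WT and 134602 and 119419 CPM in Ash1l_het at 1 year. WT replicate 2 and Ash1l_het replicate 1 were the highest at 1 month, and the remaining 1-month libraries lay below every 1-year library. The 84 nuclear members summed to 7721, 9185 and 8346 CPM in WT and 8950, 8232 and 8486 CPM in Ash1l_het at 1 month, and to 8846 and 9180 CPM in WT and 9100 and 9496 CPM in Ash1l_het at 1 year. The same 2 libraries were the highest at 1 month. The ratio of the mitochondrial to the nuclear sum lay between 11.4 and 14.8 over the 10 libraries. At 1 month it was also highest in Ash1l_het replicate 1 (14.7) and WT replicate 2 (14.5), against 11.4 to 14.0 in the other 1-month libraries. The ratio averaged 13.3 ± 1.32 (SD, n = 6) at 1 month and 13.6 ± 0.91 (SD, n = 4) at 1 year, and the ages overlapped. Ash1l_het replicate 2 had the lowest 1-year ratio, 12.6, with the low mt-Atp6 value described below in its sum. Without mt-Atp6 its log2 ratio was 3.63, and WT replicate 1 was lowest at 1 year with 3.61. The summed CPM of the cytosolic ribosomal protein genes was 4843 to 7314 at 1 month and 7021 to 8257 at 1 year, and was also highest at 1 month in WT replicate 2 (7314) and next in Ash1l_het replicate 1 (6905); the part of this in the members' values was not tested.

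**Figure D2:**
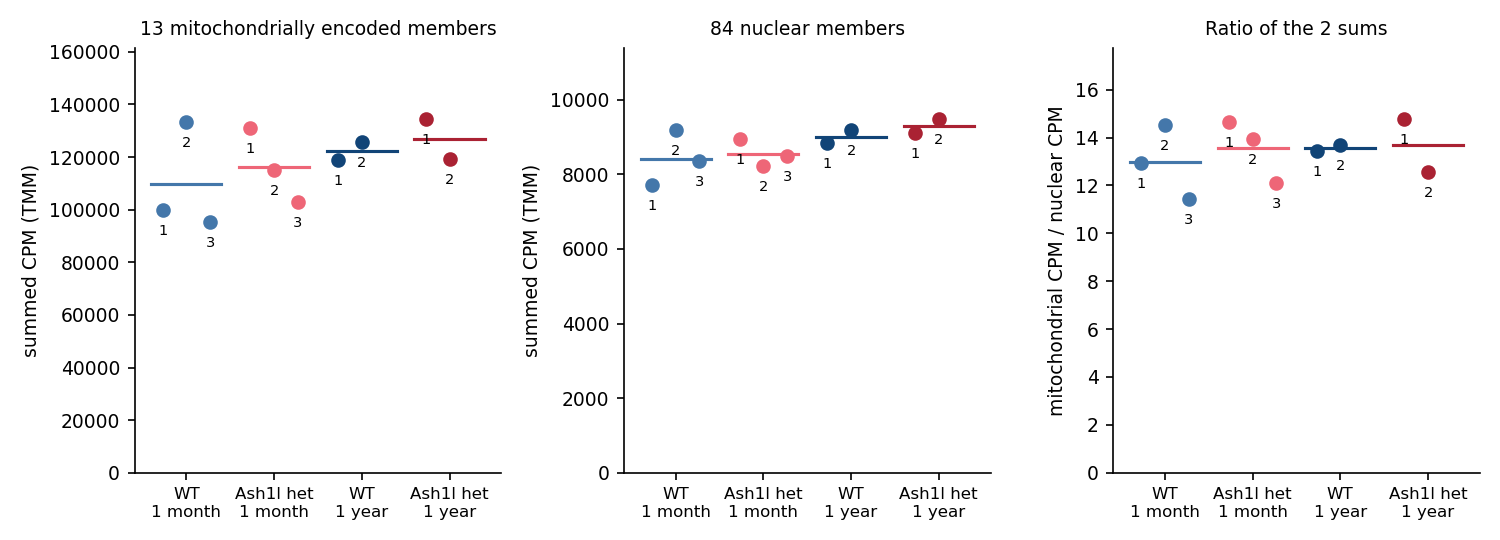
Summed CPM of the 13 mitochondrial members (left) and of the 84 nuclear members (middle) and the ratio of the 2 sums (right) in each library, with replicate numbers below the points and group means as lines. Ratios lie between 11.4 and 14.8, and WT replicate 2 and Ash1l_het replicate 1 are highest at 1 month in both sums.

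Nuclear members differed in how closely they followed the mitochondrial sum across the 10 libraries. As a description, with libraries sharing their scaling and depth, the Pearson correlation of log2 CPM with that sum was highest for Ndufc1 (0.92), Ndufb11 (0.91), Atp5j2 (0.90), Ndufc2 (0.89) and Sdhb (0.86). It was lowest for Ndufa10 (-0.77), Atp5a1 (-0.73), Uqcrc1 (-0.56), Ndufa4l2 (-0.50) and Sdha (-0.50). Apart from Sdhb, the iron-sulfur subunit of complex II, the first group are small accessory subunits of complexes I and V, and the second group includes the large core subunits alpha of complex V, core 1 of complex III and the flavoprotein of complex II. Split in 3 by the gene length behind the FPKM, the median correlation was 0.65 in the 27 shortest members, 0.68 in the 27 of middle length and 0.22 in the 27 longest.

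Whether loss of 1 Ash1l copy changed the members was asked at each age and over both. At 1 month, 65 of 94 members were higher and 29 lower in Ash1l_het than in WT, beside 52.0% of all genes higher, with a median log2 fold change of 0.07 for the 13 mitochondrial and 0.02 for the nuclear members. No member passed an adjusted p of 0.05 by edgeR, and none had an unadjusted p under 0.05, where the background over 16023 genes was 0.00% adjusted and 3.00% unadjusted. All 13 mitochondrial genes were higher on average, by log2 0.01 to 0.27, and the libraries of the 2 groups overlapped for every one of them (3.51% of all genes were higher without overlap). Without WT replicate 2 the mitochondrial median was 0.26 and without Ash1l_het replicate 1 it was -0.01. DESeq2 and limma on FPKM called 0 members as well.

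At 1 year, 71 members were higher and 23 lower in Ash1l_het (51.1% of all genes were higher), with medians of 0.10 for the mitochondrial and 0.09 for the nuclear members against 0.01 over all genes. In the same comparison all 19 immediate early genes, which neuronal activity induces, were lower (median -0.65), as were all 19 glycolysis genes (-0.12), 9 of 10 neuron (-0.12) and 9 of 10 interneuron markers (-0.19), while all 10 oligodendrocyte markers (0.11) and 69 of 80 cytosolic ribosomal protein genes (0.14) were higher. None of these genes was called by edgeR, and their part in the members' values was not tested. Again edgeR called 0 members, beside 0.0125% of all genes, and DESeq2 and limma called 0. The 2 members with an unadjusted p under 0.05, beside 5.68% of all genes, were Ndufs6, a complex I subunit, and Cox6a2. Ndufs6 was at 34.5 and 31.9 CPM in WT and 40.3 and 44.4 CPM in Ash1l_het (log2 fold change 0.35 ± 0.14 SE, edgeR adjusted p = 0.859). Cox6a2 was at 5.93 and 6.86 CPM in WT and 4.66 and 3.98 CPM in Ash1l_het (-0.56 ± 0.24, edgeR adjusted p = 0.863). With 2 libraries a group, values that do not overlap are common. Of 94 members, 37 were higher and 12 lower in both Ash1l_het libraries than in either WT library, beside 21.6% and 20.8% of all genes. The share of members higher was thus above that of all genes, and the share lower was below it. The cause was not tested. Over both ages edgeR called 0 members, beside 0.00624% of all genes, and 0 had an unadjusted p under 0.05, beside 4.98%, with medians of 0.09 for the mitochondrial and 0.06 for the nuclear members. The genotype effect was not called different between the ages for any member either (0 of 94 by edgeR's interaction term, beside 0.00624% of all genes). Only Cox6a2 had an unadjusted p under 0.05 there, beside 4.17% of all genes (-0.67 ± 0.30, edgeR unadjusted p = 0.046). DESeq2 and limma called 0 members over both ages and for the interaction.

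One mitochondrial value at 1 year stood apart. mt-Atp6 was at 9070, 12586 and 8620 CPM in WT and 12230.4, 10239 and 9335 CPM in Ash1l_het at 1 month, and at 11025 and 11790.1 CPM in WT and 12220.4 CPM in Ash1l_het replicate 1 at 1 year, but at 2154 CPM in Ash1l_het replicate 2. That library was 4-fold below the next lowest. In the same library, mt-Atp8 and mt-Co3, the genes on either side of mt-Atp6, were at 5097 and 12488 CPM, within or above the range of the others. The identical nuclear copy Gm10925 was at 3110 CPM there, against 1875 to 3497 CPM in the other 9 libraries, and so was counted at 144% of mt-Atp6 in that library against a median of 24.7% over the 10. Of 7781 genes with a median of at least 20 CPM, 40 had a lowest library under 1/2 of the next lowest, 8 of them in this library, and mt-Atp6 was the only member among these. The mt-Atp6 fold change at 1 year, -0.67, rests on this library, and without it mt-Atp6 was higher at 1 year than at 1 month (0.18 in place of -0.19, over both genotypes). Without Ash1l_het replicate 1 at 1 year, which leaves this library as the only one of its group and takes it to vary like the others, edgeR called mt-Atp6 lower in every comparison that uses that group. With the counts of the chromosome 1 copies added to their genes, mt-Atp6 was at -0.12 over both genotypes.

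**Figure D3:**
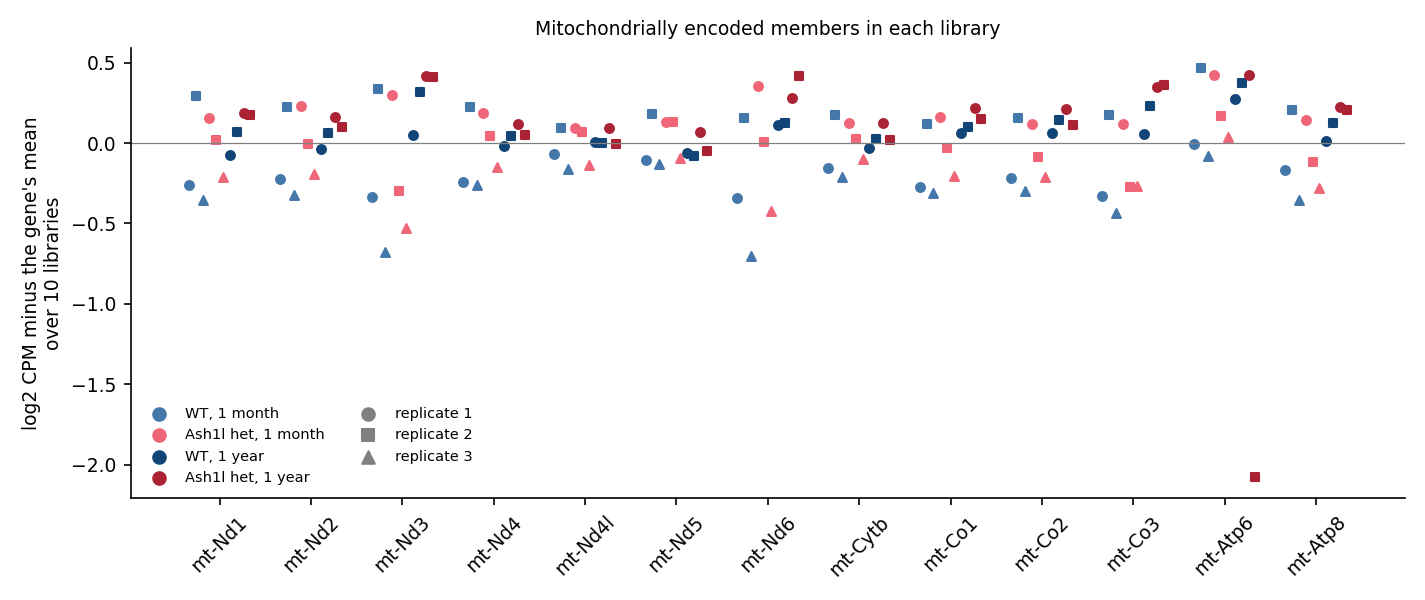
log2 CPM of each mitochondrial member minus its own mean over the 10 libraries; colour gives the group and marker shape the replicate. The genes move together within a library, and mt-Atp6 in Ash1l_het replicate 2 at 1 year is the one point far below the rest.

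The largest differences among the members were between the ages. Over both genotypes, 74 of 94 members were higher and 20 lower at 1 year than at 1 month, beside 50.7% of all genes higher, with a median log2 fold change of 0.13 for the mitochondrial and 0.17 for the nuclear members, against 0.01 over all genes tested. The background varied with gene length: over all genes as long as the shortest, middle and longest 27 nuclear members the medians were 0.12, 0.05 and -0.02, where those members had 0.18, 0.21 and 0.07. By edgeR 9 members rose and 1 fell, all nuclear, which is 10 of 94 beside 14.1% of all genes (6.64% higher and 7.49% lower). The share of members called was thus no higher than that of genes in general. The libraries of the 2 ages did not overlap for 4 members that were higher and 1 that was lower, beside 5.02% and 5.48% of all genes.

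Complex IV had 3 members that rose and 1 that fell among its 15 nuclear members tested, beside 6.64% and 7.49% of all genes. Cox7c rose most clearly, with 4.18, 5.46 and 3.41 CPM in WT and 5.27, 4.68 and 4.05 CPM in Ash1l_het at 1 month, and 7.61 and 8.86 CPM in WT and 11.2 and 11.5 CPM in Ash1l_het at 1 year (log2 fold change 1.10 ± 0.15 SE, edgeR adjusted p = 0.0038). Every 1-year library lay above every 1-month library. Cox7a2, the isoform of subunit 7a known from most tissues, was at 75.3 to 99.3 CPM at 1 month and 94.8 to 119 CPM at 1 year (0.39 ± 0.10, edgeR adjusted p = 0.023). Cox4i1, the isoform of subunit 4 known from most tissues, was at 280 to 440 CPM at 1 month and 433 to 504 CPM at 1 year (0.38 ± 0.11, edgeR adjusted p = 0.043). For both, only WT replicate 2 at 1 month reached into the 1-year range. Cox6a2 fell, with 5.93, 7.25 and 8.93 CPM in WT and 7.22, 8.48 and 8.16 CPM in Ash1l_het at 1 month, and 5.93 and 6.86 CPM in WT and 4.66 and 3.98 CPM in Ash1l_het at 1 year (-0.54 ± 0.15, edgeR adjusted p = 0.036). The WT libraries of the 2 ages overlapped. Its fold change was -0.88 within Ash1l_het and -0.21 within WT, a difference that did not pass (edgeR interaction above).

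Complex V had 2 members that rose of 17 nuclear ones, beside 6.64% of all genes called higher. Atp5l was at 3.12, 4.34 and 3.29 CPM in WT and 6.38, 4.14 and 3.12 CPM in Ash1l_het at 1 month, and 7.76 and 9.07 CPM in WT and 8.91 and 9.02 CPM in Ash1l_het at 1 year (1.11 ± 0.19, edgeR adjusted p = 0.0073). The ages did not overlap. Atp5h, subunit d of the stalk, was at 61.1 to 84.9 CPM at 1 month and 83.9 to 94.0 CPM at 1 year (0.34 ± 0.10, edgeR adjusted p = 0.040). The genes of the catalytic part, Atp5a1 (-0.16) and Atp5b (-0.05), were lower at 1 year and were not called.

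Complex I had 3 members that rose of 37 nuclear ones, beside 6.64% of all genes called higher. All 3 are accessory subunits of its membrane arm. Ndufb2 was at 29.5 to 41.1 CPM at 1 month and 42.7 to 47.1 CPM at 1 year (0.38 ± 0.10, edgeR adjusted p = 0.027), and Ndufb8 at 65.2 to 85.3 and 88.7 to 103 CPM (0.32 ± 0.09, edgeR adjusted p = 0.033), both without overlap. Ndufb4 was at 3.26 to 4.79 CPM at 1 month and 4.39 to 7.15 CPM at 1 year, with overlap (0.55 ± 0.17, edgeR adjusted p = 0.049). In complex III, Uqcrh, the hinge protein beside cytochrome c1, was at 95.8, 139 and 92.9 CPM in WT and 121, 93.7 and 87.5 CPM in Ash1l_het at 1 month, and 136 and 150 CPM in WT and 151 and 164 CPM in Ash1l_het at 1 year (0.52 ± 0.13, edgeR adjusted p = 0.025). WT replicate 2 at 1 month was the only library to reach into the 1-year range. None of the 4 members of complex II was called, beside 14.1% of all genes. Their median was 0.02, where the nuclear medians of complexes I, III, IV and V were 0.17, 0.09, 0.21 and 0.09.

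**Figure D4:**
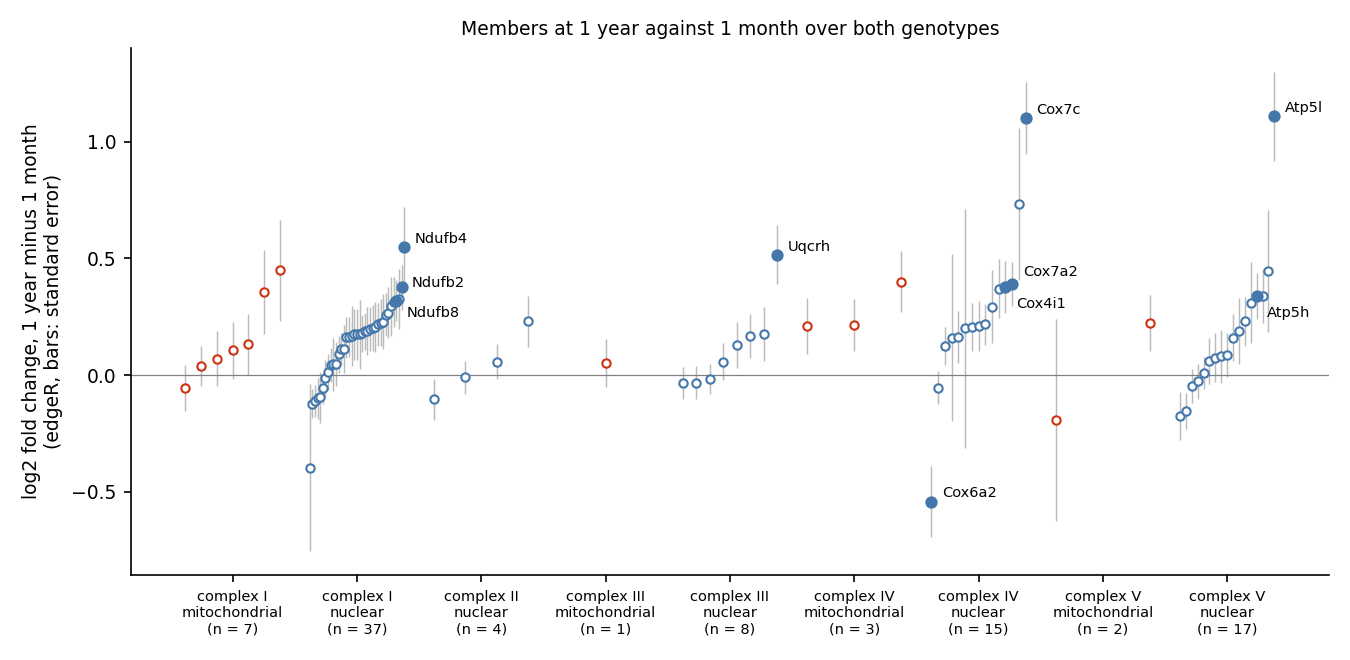
Log2 fold change at 1 year against 1 month over both genotypes, with its standard error, for the 94 members tested, by complex and genome. Filled points passed an adjusted p of 0.05 by edgeR: 9 nuclear members above 0 and Cox6a2 below, and none of the 13 mitochondrial members.

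Of the mitochondrial genes, 11 were higher and 2 lower at 1 year and 0 were called by edgeR, with 1 at an unadjusted p under 0.05 (31.9% of all genes). mt-Co3, a core subunit of complex IV, had the smallest p, with 7757, 10965 and 7205 CPM in WT and 10579, 8064 and 8067 CPM in Ash1l_het at 1 month, and 10129.9 and 11428 CPM in WT and 12393 and 12488 CPM in Ash1l_het at 1 year (0.40 ± 0.13, edgeR adjusted p = 0.060). WT replicate 2 and Ash1l_het replicate 1 at 1 month overlapped the 1-year range. With the copies' counts added it was at 0.36 (edgeR adjusted p = 0.097). Its copy Gm28437 had a fold change of 0.18 ± 0.19. mt-Co3 passed the threshold with DESeq2, with no filter, with total counts and with limma on FPKM plus 0.1. mt-Nd3 had the highest value, 0.45 ± 0.22 (edgeR adjusted p = 0.190), with 906 to 1826 CPM at 1 month and 1500 to 1937 CPM at 1 year. mt-Nd5 was at -0.06 ± 0.10 and mt-Atp6 at -0.19 ± 0.43, the second resting on the single library above. With a correction for gene length in each library the mitochondrial median was 0.00 and the nuclear one 0.07.

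How many members were called depended on single libraries, and so did the calls over all genes. Between the ages over both genotypes, 1064 genes were called higher and 1200 lower with every library in the fit. Without WT replicate 2 at 1 month these were 1199 and 1449, and without Ash1l_het replicate 1 at 1 month 1876 and 2258. Without WT replicate 1, WT replicate 3, Ash1l_het replicate 2 or Ash1l_het replicate 3 at 1 month, 567, 519, 609 and 531 were higher. The numbers lower were then 582, 554, 712 and 588. The 10 calls became 25 without WT replicate 2 and 22 without Ash1l_het replicate 1 at 1 month, and the same 10 genes were among them both times. They became 3, 2, 2 and 2 without WT replicate 1, WT replicate 3, Ash1l_het replicate 2 or Ash1l_het replicate 3 at 1 month, and 4, 1, 3 and 2 without WT replicate 1, WT replicate 2, Ash1l_het replicate 1 or Ash1l_het replicate 2 at 1 year. Cox7c was the one member called each time. In WT alone, edgeR called 0 members between the ages (6 with an unadjusted p under 0.05, beside 0.0936% of all genes called and 15.3% unadjusted). DESeq2 called 2 there, beside 110 genes higher and 132 lower of 14923 with an adjusted p. In Ash1l_het alone, edgeR called Cox7c (1.28, beside 3.45% of all genes). DESeq2 called 5 members, beside 541 genes higher and 811 lower of 14034 with an adjusted p. Without Ash1l_het replicate 1 at 1 month edgeR called 19 members, beside 1303 genes higher and 1628 lower of 15919 tested. Without replicate 2 at 1 month it called 0, beside 14 genes higher and 12 lower. Without replicate 3 it also called 0, beside 12 and 7. The 2 age comparisons share no library, and the medians were 0.16 and 0.13 in WT and 0.18 and 0.20 in Ash1l_het for the mitochondrial and nuclear members. No member's age difference was called different between the genotypes, which is the interaction given above.

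The 2 members with the largest rise are among the 5 nuclear members with over 20% of their sequence in copies. All 5 of these were higher at 1 year, with a median of 0.55, and 4 were called. Of the other 76 tested 58 were higher, with a median of 0.16, and 5 rose and 1 fell past the threshold. Over all genes 50.7% were higher and 14.1% were called. The copies moved as well. Gm10012, the copy of Cox7c, was at 1.62 to 3.54 CPM at 1 month and 8.19 to 8.64 CPM at 1 year (1.79 ± 0.21, edgeR adjusted p = 0.0015), and Atp5l2-ps was at 1.94 to 3.37 CPM at 1 month and 6.42 to 7.43 CPM at 1 year (1.54 ± 0.19, edgeR adjusted p = 0.0017). Gm10250, the copy of Atp5h, was counted above Atp5h itself, at 117% to 151% of it, with a fold change of 0.18 ± 0.09 that was not called. The identical copies Gm12338 of Cox7c and Gm10221 of Atp5l have no counts of their own here. The same holds for Ndufb4c, which differs from Ndufb4 at 0 of 387 coding bases. Gm10012 holds 23.4% of the 100-base stretches of Cox7c, and Atp5l2-ps holds 2.9% of those of Atp5l. Gm12338 and Gm10221 are identical to Cox7c and Atp5l over the bases given above. How reads with several equally good positions were counted is not stated. A rise of Cox7c or Atp5l and a rise of a copy thus cannot be told apart from these counts.

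**Figure D5:**
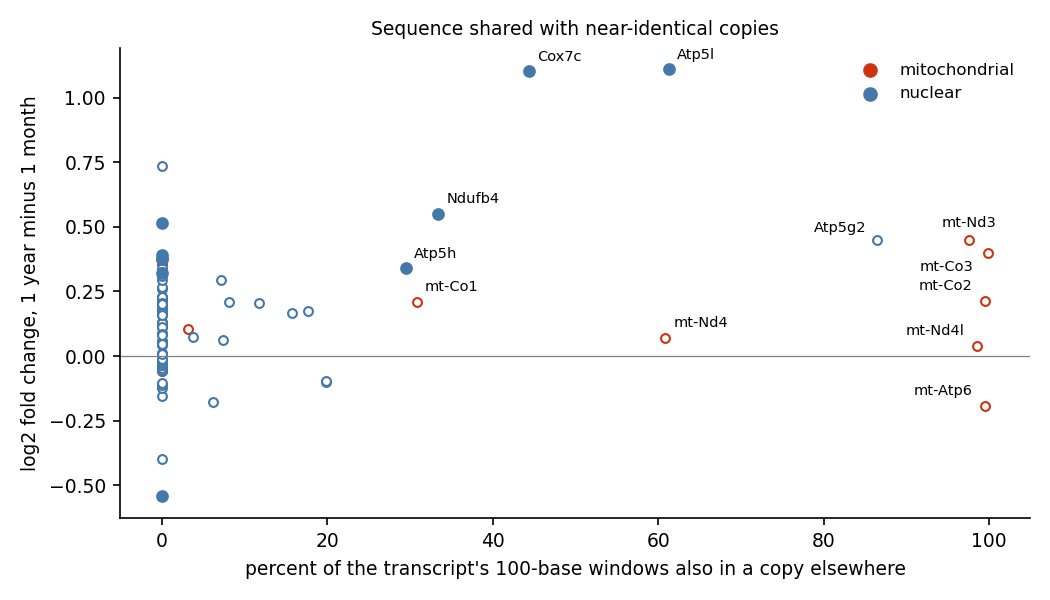
Log2 fold change at 1 year against 1 month (vertical) against the percent of the transcript's 100-base stretches that also occur in a near-identical copy (horizontal), for the 94 members tested; filled points passed edgeR's adjusted p of 0.05. Cox7c and Atp5l, with 44.4% and 61.3%, have the largest values, and 7 mitochondrial genes share 30.8% to 99.9%.

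The promoters of nuclear members are known to carry sites for NRF1 and for ETS factors such as GABPA, so the letters of their usual motifs were counted in the 250 bases before the annotated start. RefSeq promoters (GRCm38.p6) were matched for 66 of the 84 nuclear members by symbol. The NRF1 letters TGCGCA, a core of that factor's site that reads alike on both strands, were in 13 of 66 promoters (19.7%), against 12.6% of the 11387 promoter-matched genes tested here and 7.36% of all 27025 genes in the promoter table. These letters were chosen after the counts of a longer form had been seen. The ETS letters CCGGAAG, on either strand, were in 12 (18.2%), against 14.0% and 7.83%, and the YY1 letters AANATGGCG in 3 (4.55%), against 2.29% and 1.29%. Of the 10 members called for age, 8 had a promoter to search, and the NRF1 letters were in those of Atp5l and Ndufb4 and the ETS letters in those of Atp5l, Uqcrh and Atp5h. Both promoters with NRF1 letters are shown with the matches in capitals, the Atp5l one (chr9:44920743-44920992, minus strand) with an NRF1 match and then an ETS match, which lies on the other strand, and the Ndufb4 one (chr16:37654369-37654618, minus strand) with 1 NRF1 match:

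Atp5l: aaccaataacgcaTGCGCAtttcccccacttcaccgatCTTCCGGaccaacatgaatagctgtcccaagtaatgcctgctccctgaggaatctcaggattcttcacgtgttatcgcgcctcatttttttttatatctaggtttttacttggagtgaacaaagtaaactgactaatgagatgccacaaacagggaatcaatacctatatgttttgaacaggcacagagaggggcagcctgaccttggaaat
Ndufb4: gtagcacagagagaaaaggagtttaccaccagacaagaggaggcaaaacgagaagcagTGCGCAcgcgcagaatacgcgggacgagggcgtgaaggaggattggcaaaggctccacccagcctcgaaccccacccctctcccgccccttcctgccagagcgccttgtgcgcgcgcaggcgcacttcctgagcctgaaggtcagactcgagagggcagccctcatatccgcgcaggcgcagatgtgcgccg

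The median age difference was 0.21 in the 13 members with NRF1 letters and 0.17 in the 51 without that were tested, and 0.21 in the 12 with ETS letters and 0.18 in the 52 without. A match is a description of the letters and not a binding site.

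Other genes of mitochondrial energy metabolism were read against the members over the same age comparison, with edgeR and 14.1% of all genes called. Of 46 respiratory complex assembly factors tested, 27 were higher, the median was 0.08, Nubpl (0.51 ± 0.15), which delivers iron-sulfur clusters to complex I, and Cox19 (0.38 ± 0.10) rose and Cox10 (-0.41 ± 0.10), of heme a synthesis, fell. Of 20 electron carriers and further subunits, 4 rose, among them Usmg5 (0.69 ± 0.15), a small subunit of the ATP synthase, Ndufab1 (0.32 ± 0.08), the acyl carrier protein of complex I, and Pdss1 (0.82 ± 0.12), of ubiquinone synthesis. Of 29 genes for mitochondrial DNA maintenance and expression, 5 rose and 0 fell, with Pnpt1 (0.63 ± 0.13) and Mterf3 (0.43 ± 0.11) among them, and of 77 mitochondrial ribosomal proteins 3 rose. Of 19 regulators of mitochondrial biogenesis, 10 were higher and 9 lower, and Esrrg (-0.41 ± 0.12) and Prkaa2 (-0.27 ± 0.08) fell. In the citric acid cycle list of 21, 15 were lower, with Idh2 (0.50 ± 0.08) and Mpc1 (0.64 ± 0.09), a pyruvate carrier, up and Dlat (-0.31 ± 0.07) and Ogdh (-0.34 ± 0.09) down. In glycolysis and glucose uptake 16 of 19 were lower, with a median of -0.28, and 5 fell, among them the glucose transporters Slc2a3 (-0.47 ± 0.10) and Slc2a1 (-0.47 ± 0.14) and the enolase Eno2 (-0.35 ± 0.09), which is also one of the neuron markers. The glycolysis median thus had the opposite sign to that of the nuclear members, 0.17, over the same libraries. Of 80 cytosolic ribosomal protein genes 73 were higher, with a median of 0.38, and 28 rose and 1 fell.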

How the data were processed

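Auditory cortex mRNA of 10 libraries was analysed from the authors' deposited read counts per gene and FPKM values. Per the submitters' processing notes CASAVA, FastQC, HISAT2, StringTie, edgeR and GRCm38 were used; of versions, strand setting and the handling of multiply aligned reads, the sources used here say nothing. The deposited FPKM equalled count over length and library total within 0.1% for 11523 of 11523 genes with enough counts. All columns were mapped to samples (0 unmapped). Counts of 16023 genes passing filterByExpr (minimum count 10, total 15) were fitted with edgeR 4.0.16 (R 4.3.3; TMM, robust quasi-likelihood, 4 group means), with two-sided p-values adjusted by Benjamini-Hochberg over all genes at 0.05. Alternatives used DESeq2 1.42.0 and limma 3.58.1 (log2 of FPKM plus 1 or 0.1), other scalings, filters, a gene length correction, the replicate block and each library left out. Scripts were tested on simulated data. Copies were found with BLAST 2.17.0 (at least 95% identity over 100 bases) among GENCODE M21 transcripts. The members and gene lists were chosen with earlier results of these data known. Genes were named by rule: all mitochondrial members, every called member, up to 5 per direction and comparison by smallest p, the highest and lowest per complex, isoforms, members most and least like the mitochondrial sum, and up to 4 genes of each other list. Not every gene this rule allows is named, and most uncalled nuclear members that were lower at 1 year are not.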

Additional observations from a re-analysis of the deposited data

How the results depend on the processing

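With 2 or 3 libraries a group, the count of members called moved with the settings. So did the calls over all genes. Between the ages over both genotypes 1064 genes were called higher and 1200 lower, against 111 and 78 under the replicate block. Between the ages over both genotypes the 10 calls were 7 to 15 under the other scalings, filters and tools and 1 under the replicate block (Cox7c), and 1 to 25 when each library was left out. In Ash1l_het the 1 call became 2 with RLE scaling, total counts, library sizes without mitochondrial genes or the gene length offset, 4 with no filter, 5 with DESeq2, 3 with limma on FPKM plus 1, 0 with the 2 groups alone and 0 under the replicate block, and 0 to 19 with a library left out. In WT the 0 calls became 1 with no filter, 2 with DESeq2 and 1 with the 2 groups alone. The 0 calls for genotype and for the interaction became 0 to 1 with a library left out (mt-Atp6, without Ash1l_het replicate 1 at 1 year). Whether replicate numbers pair the libraries is not stated. Same-numbered 1-month libraries of the 2 genotypes correlated in their deviations at -0.07 to 0.04, and differently numbered ones at -0.04 to 0.08. With 3 libraries a group this cannot settle whether they are paired.

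With the gene length offset the mitochondrial median between the ages in Ash1l_het was -0.018, and mt-Atp8 (-0.066), mt-Cytb (-0.049), mt-Nd2 (-0.0026), mt-Nd4 (-0.010) and mt-Nd4l (-0.21) changed sign over both genotypes. Under the replicate block mt-Cytb (-0.011), mt-Nd4 (-0.011) and mt-Nd4l (-0.023) did. Over both genotypes mt-Atp6 was -1.06 to 0.18 with a library left out, and the mitochondrial median for genotype at 1 month was -0.013 to 0.26. The cause was not tested.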
